A study of Mus musculus with 9 samples.

Results

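Ddit3 and Mars are neighbouring genes of mouse chromosome 10 that lie on opposite strands and overlap at their tails. They were chosen by name, as 2 of the 53379 rows of a gene count table, after earlier results of these data had shown both higher under the drug DON, so the DON values of both are given as a description without a test. Both rows passed the filter on low counts that kept 4731 rows. The cells were MOVAS, an immortalised smooth muscle line of mouse aorta with a C57BL/6 background, a single line that stands for no other muscle cell. All cultures shared the same serum-containing medium with geneticin. The 9 libraries comprised 3 of untreated control, 3 of cells given 50 mM DON for 24 h, and 3 of cells given 50 mM DON and 2 mM glutamate for 24 h, the doses being those of the labels. DON is commonly used at micromolar doses, and the catalogue number that the labels give for glutamate is known as that of a glutamine dipeptide supplement. Neither the dose nor the supplement could be checked here, so both are named as labelled. Whether the 3 libraries of a group are separate cultures is not stated in the labels, and the spread that the p-values rest on may therefore be technical.

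Ddit3 encodes CHOP, a transcription factor of the bZIP family that pairs with C/EBP proteins. Its transcription is known to rise when the kinases that sense missing amino acids, unfolded protein or other stress phosphorylate the translation factor eIF2, which slows protein synthesis while the factor ATF4 is made. Mars encodes the cytosolic methionyl-tRNA synthetase, which loads methionine on its tRNA and so supplies both the start and the chain of every cytosolic protein. Several tRNA synthetase genes are known ATF4 targets. DON is a glutamine analogue that blocks enzymes using glutamine.

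In mm10, Ddit3 lies on the plus strand of chromosome 10 from 127290774 to 127296288, and Mars on the minus strand from 127296221 to 127311786 (GENCODE M21). Their exons share 68 bp, from 127296221 to 127296288. This stretch lies in the 3′ untranslated region of both full-length transcripts, starting 130 bp after the Ddit3 stop codon and ending 6 bp from that of Mars. It is 3.97% of the 1713 exonic bp of Ddit3 and 1.99% of the 3423 of Mars. The map of the exons shows that the overlap is the one place where the bodies of the genes meet.

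**Figure D1:**
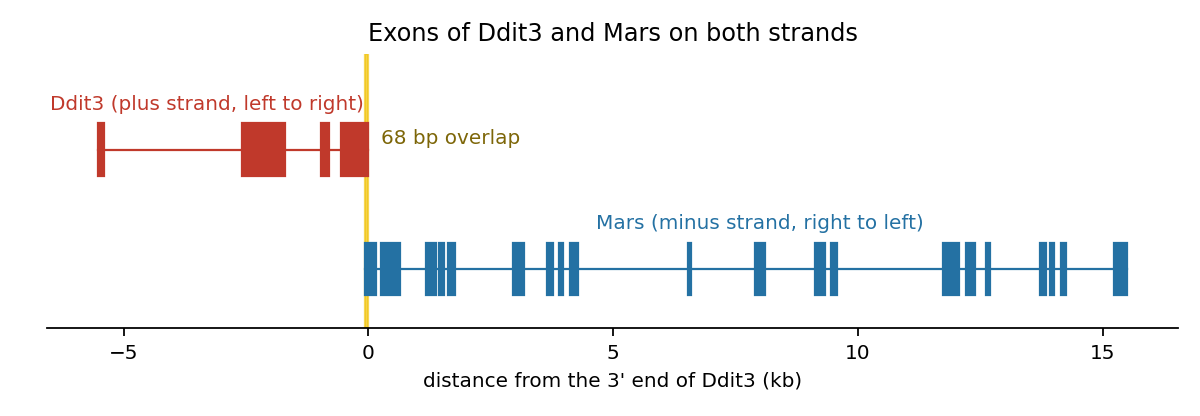
Exons of Ddit3 and Mars merged over their annotated transcripts, against distance in kb from the 3′ end of Ddit3; boxes are exons and the yellow band is the 68 bp overlap. The genes point towards each other and share their tails only.

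The starts of the genes lie at the far ends, so each has its own promoter. The bases just before the first annotated base of each are shown because the levels of both genes moved together under DON. They come from RefSeq (GRCm38.p6), on the strand of the gene, at chr10:127290543-127290773 for Ddit3 (plus strand, 231 bases) and chr10:127311787-127312036 for Mars (minus strand, 250 bases, under its newer symbol Mars1). Capitals mark, from left to right, a match to TGANTCA, the element of AP-1 factors, and a match with 1 mismatch to the endoplasmic reticulum stress element, ERSE.
Ddit3: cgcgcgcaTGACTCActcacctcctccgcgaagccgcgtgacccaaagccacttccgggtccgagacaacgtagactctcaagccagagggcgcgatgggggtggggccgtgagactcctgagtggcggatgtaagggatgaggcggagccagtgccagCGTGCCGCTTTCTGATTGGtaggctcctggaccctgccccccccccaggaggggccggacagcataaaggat
Mars: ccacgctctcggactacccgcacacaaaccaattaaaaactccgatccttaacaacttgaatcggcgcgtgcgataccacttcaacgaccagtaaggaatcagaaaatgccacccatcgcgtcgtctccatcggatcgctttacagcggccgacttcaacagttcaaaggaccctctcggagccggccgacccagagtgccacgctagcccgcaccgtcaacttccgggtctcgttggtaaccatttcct
The search covered both strands of the windows from 250 bases before to 50 after each RefSeq start. TGANTCA was in the window of Ddit3, beginning 242 bases before the start, and in 7.81% of 32851 promoter windows. TGATGCAA, the core shared by C/EBP and ATF factors, was in neither window, and in 0.895% of all. Its wider form TGATGNAA, which contains every match of the former, was also in neither, against 3.97% of all. The cyclic AMP element TGACGTCA was in neither (1.79% of all). An exact ERSE was in neither, against 0.119% of all. With at most 1 mismatch allowed, a setting added after the sequences were seen, ERSE was in the window of Ddit3 on the other strand, beginning 91 bases before the start, and in 494 of the 32851 windows. A match is a description of the letters and not a site. Bases further from either start were not searched, so a missing match holds for these windows only.

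Each row was read as the gene on the other strand. The totals ran from 1132822 to 1342286 counts per library, and rows lying across from an exon of a coding gene made up 10.3% of the table but held 88.0% ± 0.40 of the counts (SD, n = 9 libraries). This can arise when libraries that mark the strand are counted with the opposite setting, which only the reads could settle. Counts of the Mars row are therefore called Ddit3 reads below, and counts of the Ddit3 row Mars reads. On this reading both cover the shared 68 bp and the reads that touch it, and they say nothing of the rest of either transcript. The positions of the reads were not seen, so reads opposite other exons of either gene could not be told apart. On the minus strand the noncoding transcript Gm4189 also overlaps the first exon of Ddit3, by 13 bp. Its reads would enter the Ddit3 row, and their part was not tested. Of 7 smooth muscle markers listed, 3 had an opposite-strand row, of which Tagln held 216 to 407 reads and Smtn 608 to 1081 while Des was at 0. Among leukocyte markers Cd3e, the 1 of 5 with such a row, was at 0, and among fibroblast markers Pdgfra, the 1 of 4, held 3 to 22 reads. Of the endothelial and epithelial markers none had such a row.

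How far the strand was kept was read from other pairs of coding genes that overlap tail to tail, looked at after the values were known. In 72 such pairs the fuller row held at least 9000 counts over all libraries, and in 22 of them the other row held at most 1 count per 100. The lowest share was at Smap1, where 2 counts stood against 9149. At the gene of beta-catenin, Ctnnb1, the row opposite it (Ulk4) held 50879 counts and its own row 20, or 0.0393 per 100. The pair of Ddit3 and Mars held 1219 Ddit3 reads and 2976 Mars reads, or 41.0 per 100. Its fuller row was below the 9000 counts asked of the 72 pairs, and 5 of those pairs had a higher share.

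Under DON both genes lay above their control level, Mars 2.35-fold and Ddit3 2.23-fold. Mars reads numbered 178, 161 and 176 in the control libraries. In the DON libraries they numbered 406, 419 and 416. Every DON library thus lay well above every control. As CPM (counts scaled to the TMM-adjusted total of the tested rows), Mars reads went from 133.7 ± 6.3 to 314.3 ± 10.1 (SD, n = 3), a log2 fold change of 1.23 ± 0.09 (SE). Ddit3 reads numbered 91, 72 and 75 in control and 173, 194 and 177 with DON. The lowest DON library again lay above the highest control. Ddit3 reads went from 61.8 ± 7.3 to 137.9 ± 10.8 CPM (SD, n = 3), a log2 fold change of 1.16 ± 0.13 (SE).

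Of the 4731 rows, 11.5% lay higher in all DON than in all control libraries, and 1.18% had a log2 fold change above 1. Mars stood 31st and Ddit3 36th from the top by log2 fold change; the contrast chose them, so nothing is read from these places. By edgeR's quasi-likelihood test 2.64% of rows were called higher and 3.68% lower at a Benjamini-Hochberg adjusted p under 0.05, 125 and 174 rows, or 6.32% in all. Scaling by plain library totals gave a split of 180 and 126. The sum of 299 was 183 without control replicate 1, 176 without control replicate 2, 173 without DON replicate 2 and 182 without DON replicate 3.

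**Figure D2:**
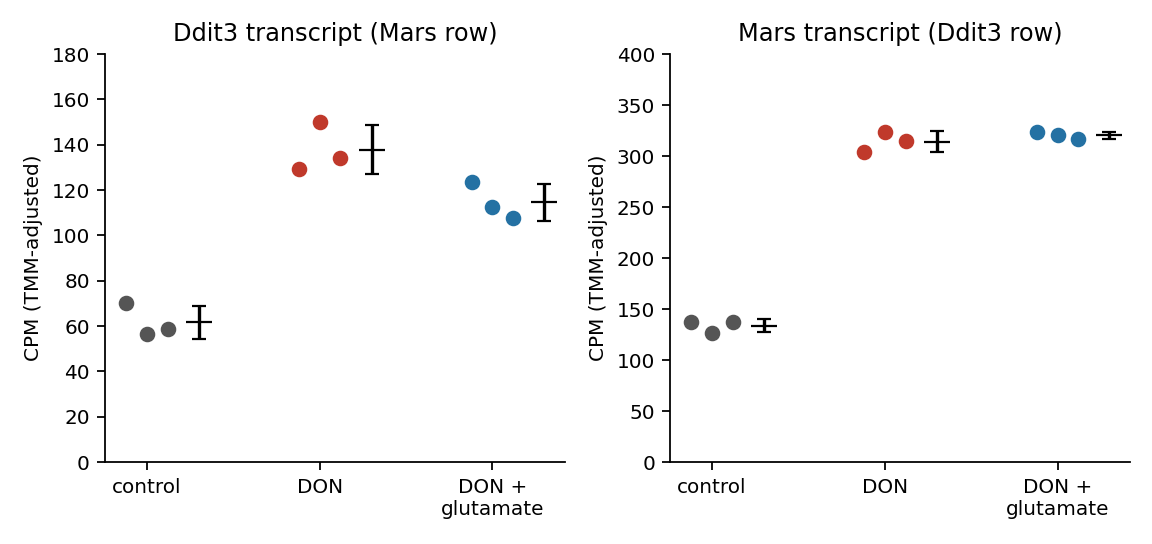
CPM of Ddit3 reads (left) and Mars reads (right) in each library; points are libraries and the bar beside them is the mean ± SD of 3. With glutamate added, Mars reads stay near 320.6 CPM while Ddit3 reads lie between 108 and 124, under every DON library.

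With glutamate added to DON, the level of Mars did not move detectably, and that of Ddit3 lay lower without passing the test. Mars reads numbered 430, 431 and 359 in the 3 libraries, the last from the smallest library of the series. At 320.6 ± 3.5 CPM (SD, n = 3) their range overlapped that of DON alone. The log2 difference from DON was 0.03 ± 0.09 (SE; edgeR adjusted p = 0.967), with an interval of 2 SE from -0.14 to 0.20. The spread of Mars reads between these libraries, 1.08% of the mean, was below the 4.96% that counting alone gives on average.

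Ddit3 reads numbered 164, 151 and 122 with glutamate, or 123.6, 112.4 and 107.8 CPM. In DON alone they were at 129.4, 150.0 and 134.1 CPM. All 3 glutamate libraries lay below all 3 of DON, as did those of 6.07% of all rows. The log2 difference was -0.26 ± 0.12 (SE), or 1.20-fold lower. Its p by edgeR was 0.0309 before adjustment, a level that 6.72% of all rows reached, and 0.707 after it. The contrast shares the DON libraries on which the genes were chosen. Over all rows 0.148% were called, 5 higher (0.106%) and 2 lower (0.0423%), neither gene among them. That count of 7 was 1 without DON replicate 3, 1 without DON plus glutamate replicate 2 and 11 without DON plus glutamate replicate 3.

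Against control, both genes remained high with glutamate. Mars was 2.40-fold higher (log2 1.26 ± 0.09, SE) and Ddit3 1.86-fold higher (log2 0.89 ± 0.13). All 3 glutamate libraries lay above all 3 controls for both genes, as for 9.87% of rows. By edgeR 3.23% of rows were called, 1.42% higher and 1.82% lower, 67 and 86 rows, a split that was 104 and 50 with plain library totals. That sum of 153 was 99 without control replicate 2 and 88 without DON plus glutamate replicate 2. These values share the control libraries with the DON contrast and carry no test. The spread of Ddit3 reads was 11.8% of the mean in control, 7.81% in DON and 7.10% with glutamate, where counting alone gives 11.2%, 7.43% and 8.29%.

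If the reads lie at the overlap, the ratio of the rows compares both genes over the same bases. Overlap length then drops out, and library size drops out in any case. Where the reads lie was not tested. Ddit3 reads per Mars read were 0.511, 0.447 and 0.426 in control. They were 0.426, 0.463 and 0.425 with DON. The lowest control lay within the range of the DON libraries, and control replicate 1 stood above the rest. With glutamate the ratio was 0.381, 0.350 and 0.340, below all 6 libraries without it. The means were 0.462 ± 0.044 in control, 0.438 ± 0.021 with DON and 0.357 ± 0.022 with DON and glutamate (SD, n = 3).

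On the log2 scale the ratio with DON differed from control by -0.07 ± 0.09 (SE), a size below the spread of the controls (SD 0.14, n = 3). It was 0.0043 without control replicate 1. DON and glutamate differed from DON alone by -0.30 ± 0.06 (SE), 1.23-fold lower. The exact two-sided permutation test gave p = 0.10, the smallest that 3 against 3 libraries allow. It shares the DON libraries on which the genes were chosen, which limits what it can show. From control the difference with glutamate was -0.37 ± 0.09, given without a test since the controls are shared. Counting alone gives the log2 ratio of a library an SD of 0.20 in control, 0.13 with DON and 0.14 with glutamate. The observed SDs were lower, at 0.14, 0.07 and 0.09 (n = 3). The SEs of these differences rest on the observed SDs and are therefore likely too small. Summed over a group, Ddit3 reads were 31.6% of both in control (238 of 753; exact Clopper-Pearson 95% interval 28.3 to 35.1), 30.5% with DON (544 of 1785; 28.3 to 32.7) and 26.4% with glutamate (437 of 1657; 24.3 to 28.6). The intervals of single libraries in the plot of the ratio overlap between groups. Intervals cover counting error only.

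**Figure D3:**
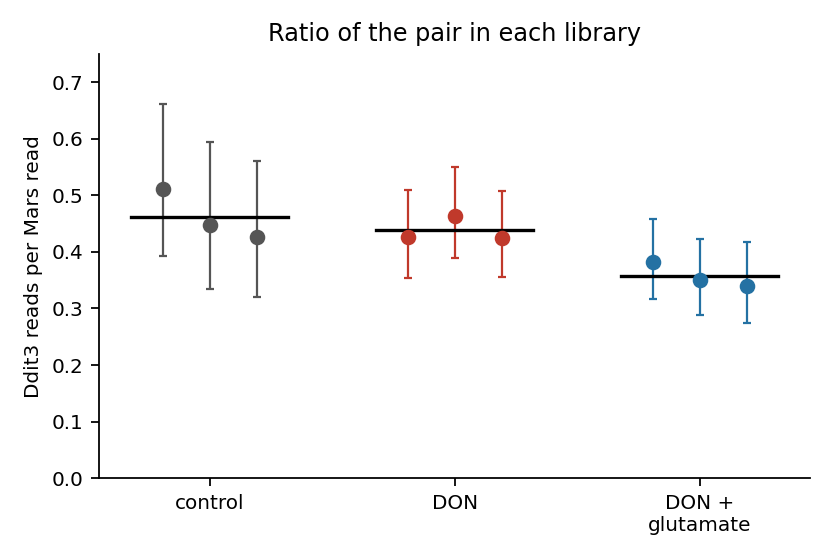
Ddit3 reads per Mars read in each library, with exact 95% intervals for counting error (thin bars) and the group mean (black line). The 3 libraries with glutamate lie from 0.340 to 0.381 and those of DON alone from 0.425 to 0.463.

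Other tail-to-tail pairs put this shift in context. In 149 pairs with a median of at least 50 counts in both rows, the ratio was that of the minus-strand gene row to the plus-strand gene row. It did not overlap between DON with and without glutamate in 16.1%, and lay lower in all glutamate libraries in 8.72%. Both shares include this pair. The direction in the other pairs depends on which gene lies on which strand, so the share that lay lower has no common meaning. In 20 of the 149, the count including this pair, the ratio moved by at least as much in size, and the median size was 0.12 on the log2 scale. Between DON and control the ratio did not overlap in 33.6%, this pair not among them. The ratio of 122 of the 149 moved there by at least as much as that of Ddit3 to Mars, and the median size was 0.20.

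For the level of both genes, 290 of 572 tail-to-tail pairs had both rows tested. Ranked by the smaller of the log2 fold changes of a pair under DON, Ddit3 and Mars stood first, a rank that their choice already favours. Second was the pair of D10Wsu102e and Aldh1l2, where reads of Aldh1l2, a mitochondrial folate enzyme, were at log2 2.13 and those of D10Wsu102e at 1.06. In that pair the reads of D10Wsu102e had a median of 25 counts per library and those of Aldh1l2 3140. How far the fewer reads are Aldh1l2 reads with the strand lost was not tested. The third pair was Iqcd and Rita1, at 0.73 and 0.48 as read, each with a median of 12 counts. Both rows were called higher in 3 pairs, a count that includes Ddit3 and Mars; without them it was 2 of 289 (0.69%). Both were called lower in 0 pairs and called in opposite directions in 1, while in 24 exactly 1 row was called. Over the 290 pairs the log2 fold changes of the partners had a Pearson r of 0.13, and 0.09 without Ddit3 and Mars; partners share library and locus. The overlap had a median of 535.5 bp over these pairs and was at most 68 bp in 10.

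**Figure D4:**
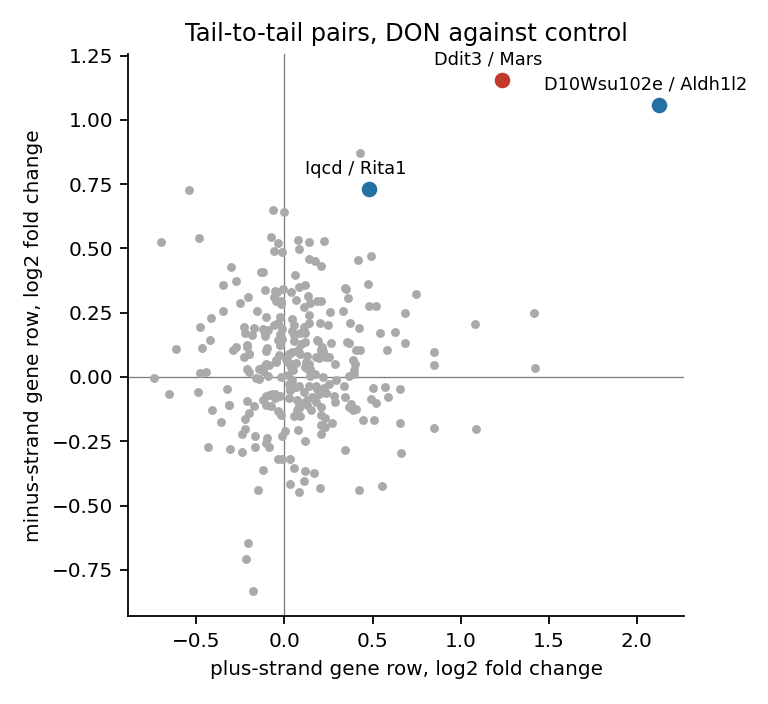
Log2 fold change, DON against control, of the plus-strand and the minus-strand gene row of 290 tail-to-tail pairs, 1 point a pair. The pair of Ddit3 and Mars (red) lies at 1.23 and 1.16 and the other 2 named pairs are blue; the red point is apart from the main cloud, which is centred near 0.

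Genes of the same stress response were measured where a row lies opposite them. The list of amino acid starvation and integrated stress response genes held 40, of which 6 were tested beside Ddit3 and Mars. Of these 5 rose under DON by edgeR (adjusted p under 0.05) and none fell, against 2.64% of all rows called higher. The list was chosen with earlier results of these data known, so the difference from all rows is a description only. The median log2 fold change of the 6 was 1.57, that of all rows 0.01. Pck2, the mitochondrial enzyme making phosphoenolpyruvate, rose 2.71-fold (log2 1.44 ± 0.27, SE; row AC159002.2; adjusted p = 0.00154), from 9.1 ± 2.5 to 24.8 ± 1.4 CPM (SD, n = 3). Its reads numbered 8 to 39 per library, so its fold is loose. Ddit3 and Mars lay below Aldh1l2 (2.13 ± 0.08), the glycine transporter Slc6a9 (1.78 ± 0.07) and Atf5 (1.71 ± 0.11), a bZIP factor also raised by ATF4. They also lay below the loose value of Pck2, and above Cebpb and Psph. Psph, the remaining gene of the 6, did not rise, at -0.08 ± 0.18 (SE; row Cct6a; edgeR adjusted p = 0.863) on 56 to 84 reads per library. Cebpb, which encodes a partner of CHOP, was at 0.33 ± 0.09 (row Tmem189; adjusted p = 0.0309). It did not pass when the first (adjusted p = 0.0760), the second (0.113) or the third (0.0993) control library was left out, nor on leaving out the second (0.0855) or the third (0.103) library of DON. The call was also lost with no filter on low counts (0.0866) and with the replicate block (0.0501); over all alternatives the adjusted p lay between 0.00688 and 0.113. With glutamate against DON 0 of the 6 passed by edgeR. Cebpb was the 1 of them with an unadjusted p under 0.05 (0.00618), as 6.72% of all rows had. It was at 585.0 ± 9.0 CPM with DON and 480.6 ± 78.5 with glutamate (SD, n = 3). Their log2 values ran from -0.28, that of Cebpb, to 0.19, that of Pck2.

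**Figure D5:**
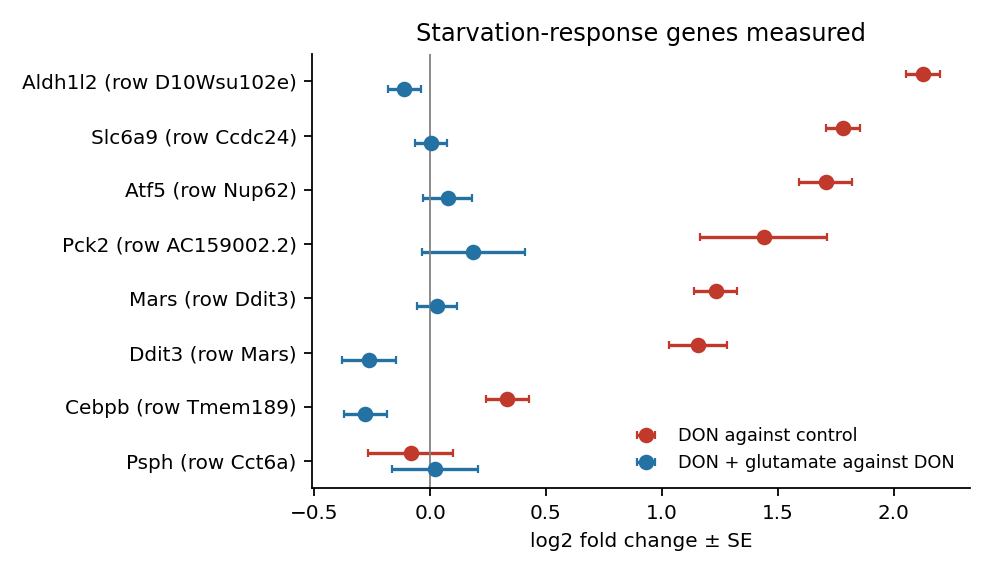
Log2 fold change ± SE of the 8 measured starvation-response genes for DON against control (red) and DON with glutamate against DON (blue). Ddit3 (-0.26) and Cebpb (-0.28) have the lowest blue values, neither passing by edgeR (adjusted p = 0.707 and 0.540).

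The other lists gave little beside them. CHOP partners and targets had 3 of 18 tested, with Cebpb called; Jun was at log2 0.12 ± 0.11 (SE) and Bcl2 at 0.10 ± 0.16. Among 3 tested of 23 genes of the endoplasmic reticulum stress response none rose, with Hsp90b1, a chaperone of that compartment, at -0.07 ± 0.07 and Syvn1, a ubiquitin ligase of its membrane, at -0.22 ± 0.24. Eif2ak3, which encodes the eIF2 kinase of that compartment, fell under DON (log2 -0.38 ± 0.11; row Gm43292; edgeR adjusted p = 0.0376). It did not pass when the first (adjusted p = 0.222) or the third (0.0640) control library was left out, nor on leaving out the first (0.137) or the second (0.134) library of DON. The call was also lost with library totals (0.0691), by DESeq2 (0.0517) and with the replicate block (0.0577); over all alternatives the adjusted p lay between 0.0250 and 0.222. Of 16 genes of eIF2 and its kinases and phosphatases 3 were tested, and Eif2ak3 was the one called. Eif2ak1, the heme-regulated kinase, was at -0.19 ± 0.10 and Ppp1r15b, a phosphatase subunit, at 0.27 ± 0.11.

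Of 23 cytosolic tRNA synthetases and their scaffold proteins 2 were tested beside Mars, and neither passed. Hars, for histidine, was at log2 -0.31 ± 0.11 (SE; row Hars2; edgeR adjusted p = 0.0834, range over the alternatives 0.0111 to 0.317). It passed without DON replicate 1 (adjusted p = 0.0111), without DON plus glutamate replicate 1 (0.0442), with no filter (0.0472) and with the 2 groups alone (0.0499). Aars, for alanine, was at 0.74 ± 0.42 with 5 to 17 reads per library. None of 6 tested mitochondrial synthetases of 21 passed, with Cars2 at -0.14 ± 0.12, Iars2 at 0.22 ± 0.17, Vars2 at 0.13 ± 0.10 and Hars2, on 4 to 13 reads per library, at 0.60 ± 0.41. In methionine and polyamine metabolism 1 of 26 was tested, Mat2a, which makes S-adenosylmethionine, at -0.17 ± 0.08. For DON against control the log2 value of Mars was above those of the 2 other cytosolic synthetases and the 6 mitochondrial ones, a place that its choice favoured. With DON plus glutamate against control Aars was close to Mars, at 1.19 ± 0.40 (SE; edgeR adjusted p = 0.115) beside 1.26 ± 0.09. Hars was at -0.10 ± 0.10 there.

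The rows most like each gene over the 9 libraries were found by the root mean square difference of centred log2 CPM. For Ddit3 they were those of Tspyl4 (0.15; row AC113059.1), Phf10 (0.16; row 1600012H06Rik), Gm27997 (0.17) and Gm27553 (0.17), which have no coding gene assigned opposite them, and Mars (0.18). For Mars, Ddit3 came first (0.18). Next were C77080 (0.19), Paqr3 (0.20; row Bmp2k), Slc6a9 (0.20; row Gm17114, another row opposite it) and Tspyl4 (0.21). The likeness rests on the same 3 controls and 6 treated libraries for all rows.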

How the data were processed

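RNA of 9 MOVAS libraries was sequenced. The authors deposited whole-number counts per gene row, with STAR, HTSeq and mm10 named in the submitters' processing notes. The annotation, strand setting and versions are not given in the sources used here. Rows were read on the opposite strand through GENCODE M21: 53274 of 53379 rows matched, and rows overlapping the exons of exactly 1 coding gene by at least 50 bp stood for 4115 genes, the fullest row each. Promoters came from RefSeq (GRCm38.p6). The test of the counts was edgeR 4.0.16 under R 4.3.3 (glmQLFit and glmQLFTest after filterByExpr and TMM, two-sided, 6 residual degrees of freedom, Benjamini-Hochberg over 4731 rows). The ratio had an exact permutation test (scipy 1.17.1). The fit was tested on simulated counts. Replicates of a group differed beyond sampling noise (chi-square per degree of freedom 2.08 to 3.28). Members, lists and tests were chosen with earlier results of these data known. Named genes were the 2 members, per list the 4 of smallest p under DON, the 5 rows most like each member, the top 3 pairs, and neighbours within 50 kb with at least 10 counts. Psph, Smap1, Ctnnb1 and the markers were named after their values were seen. Alternatives covered normalization, filters, DESeq2 1.42.0, limma voom 3.58.1, the replicate block, fewer groups or rows, a stricter threshold and each library left out.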

Additional observations from a re-analysis of the deposited data

How the results depend on the processing

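Under all alternatives run the log2 fold changes of both genes kept their direction. Against control they ran with DON from 1.19 to 1.28 for Mars and 1.09 to 1.26 for Ddit3, and with DON plus glutamate from 1.22 to 1.31 and 0.83 to 0.99; the highest Mars value, 1.31, came with library totals and lay within 1 SE of the main value. For glutamate against DON they ran from 0.004 to 0.05 for Mars (adjusted p 0.934 to 1) and -0.32 to -0.20 for Ddit3 (0.614 to 0.997). The ratio of Ddit3 to Mars reads under glutamate against DON ran from -0.34 to -0.26. For DON against control it ran from -0.13 to 0.0043, changing sign without control replicate 1, which has the highest ratio. The counts of called rows for DON against control were 136 at adjusted p under 0.01 and 173 to 318 without 1 library. For glutamate against DON they were 15 with no filter on low counts, 2 by DESeq2, 3 by limma voom, 3 with only the groups compared, 3 at adjusted p under 0.01, 1 with 1 row per opposite-strand gene and 1 to 11 without 1 library. For DON plus glutamate against control they were 79 at adjusted p under 0.01 and 88 to 178 without 1 library, and library totals turned the split of 67 higher and 86 lower into 104 and 50. The starvation list had 4 or 5 genes called higher. The cause of these moves was not tested.

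The same replicate numbers appear in each group, but nothing says that they mark a shared day. Deviations of same-numbered libraries correlated at -0.19 to 0.15, with 1 of 9 pairs over 0.1, and 2 of 9 libraries correlated best with their own number. With the replicate block the counts of called rows were 221, 6 and 117 in place of 299, 7 and 153. Under the block Ddit3 was at 1.16 and Mars at 1.23 for DON against control, and the mean paired ratio difference under glutamate was -0.30 (exact permutation p = 0.25, the smallest that 3 pairs allow). Depth limits Ddit3 most, at 72 to 194 reads per library.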

Other observations

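Within 50 kb of the pair 13 rows were listed, 7 of them with at least 10 counts in all libraries together, and 3 were tested. Beside Ddit3 and Mars the tested row was Gm20492, a noncoding transcript that partly overlaps the span of Mbd6 on the other strand, with 31 to 68 counts per library. It was at log2 0.12 ± 0.21 (SE) with DON against control (edgeR adjusted p = 0.813) and 0.56 ± 0.20 with glutamate against DON (adjusted p = 0.540). The rows of Mbd6, Dctn2, AC114678.1 and Gm4189 held 53, 28, 25 and 10 counts over all 9 libraries. The row of Gm4189 overlaps 13 bp of the first exon of Ddit3 and is read on the strand of Ddit3. It held 1 count in control, 5 with DON and 4 with glutamate in all, too few to compare with the Ddit3 reads.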
